A study of Mus musculus with 7 samples.

Results

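The genes described here are 8 genes of the Nodal pathway: the ligand Nodal, its secreted antagonists Lefty1 and Lefty2, the co-receptor Tdgf1 (Cripto), the activin receptor Acvr2b, the signal transducer Smad3, its DNA-binding partner Foxh1 and the repressor Skil (SnoN). They are 8 of 20379 genes in the deposited table, found by RefSeq accession. Where a gene had several transcript rows, the row of highest mean was taken, which applied to Skil alone (3 rows). The cells were E14 mouse embryonic stem cells carrying a cassette in which GAVPO, a light-switched transcription factor, induces Brn2 together with a red fluorescent protein. All grew in 2i medium, whose kinase inhibitors maintain naive pluripotency, and all carried the cassette, the 0 h cells included. An LED at 300 µW lit them for 0, 2, 4, 6, 14, 24 or 48 h, with 1 mRNA library per time and 7 in all, so no time has a replicate. The sources used here do not say whether the line is 1 clone, and no library came from lit cells lacking the cassette.

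Nodal is a secreted ligand of the TGF-beta family that binds activin receptors only together with an EGF-CFC co-receptor such as Cripto. The receptors phosphorylate Smad2 and Smad3, which enter the nucleus with Smad4 and act at target genes with Foxh1. Lefty1 and Lefty2 are both targets and antagonists of the pathway, so their transcripts are widely used as a readout of Nodal signalling, and mouse stem cells and the early epiblast are known to use this loop. Skil, a partner of Smad proteins, represses the same targets and is itself induced by the pathway.

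The 2 Lefty genes are close paralogs, which bears on how far their reads can be told apart. Over 1107 aligned coding bases, 1017 (91.9%) were identical in the GENCODE M21 transcripts (GRCm38). Of all 50-base windows, 17.9% of those in the Lefty1 transcript and 11.6% of those in the Lefty2 transcript occur unchanged in the other. The most different ungapped stretch of 60 coding bases (bases 34 to 93 of both reading frames) is shown, with capitals at the 18 positions where the copies differ, because reads from it can be assigned to 1 gene.
Lefty1: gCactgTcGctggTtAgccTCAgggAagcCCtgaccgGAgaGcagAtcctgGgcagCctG
Lefty2: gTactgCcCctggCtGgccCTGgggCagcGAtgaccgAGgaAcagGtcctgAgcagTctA
The sources used here do not say how reads from identical stretches were assigned, so the split between Lefty1 and Lefty2 is uncertain to that extent.

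Depth lay between 7.06 and 16.2 M reads per library, as implied by the values, and the deposited values behave as reads per kilobase of genomic span scaled to library depth. Pou3f2 (Brn2), the induced gene, was 77.0 at 0 h, peaked at 119 at 14 h and was 7.19 at 48 h. The times are therefore those on the labels and do not follow the measured level of Brn2. All 8 stem cell markers had a mean of at least 1, and their summed level lay between 969 (24 h) and 1702 (2 h). It was 1498 at 0 h and 981 at 48 h, of which Dppa5a made up 1076 and 491. Pou5f1 (154 and 235) and Sox2 (74.3 and 97.0) were higher at 48 h than at 0 h. Nanog (81.4 and 67.3) and Zfp42 (55.5 and 34.3) were lower. Between these times Nanog did not fall steadily: it was lowest at 14 h (33.4) and 48.5 at 24 h, where Pou5f1 was 176 and 219. The summed level of 6 neuronal markers was 7.29 at 0 h and 78.1 at 48 h, of which Tubb3 made up 5.4 and 44.6 and Insm1 0.245 and 28.2. That of 8 primitive endoderm markers was 0.880 and 5.86, of which Foxa2 made up 0.115 and 4.62. Summed levels of 8 fibroblast markers stayed at or under 3.28, of which Col1a2 made up 2.16 at 48 h, with Col3a1 and Dcn at or near 0. In bulk RNA, fewer cells expressing a gene and less RNA per cell cannot be told apart. Libraries also differed by GC content: the tenth of genes richest in GC lay 0.35 (log2) under their own mean at 0 h and 0.52 above it at 48 h, in median. The part of any of these in the results below was not tested unless a value is given.

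The antagonists Lefty1 and Lefty2 were both low through 6 h of light and far higher at 14, 24 and 48 h. In the 4 libraries from 0 to 6 h, in order of time, Lefty1 had values of 0.220, 1.02, 0.211 and 0.174, and in the 3 from 14 to 48 h it had 4.35, 4.81 and 17.6. Behind the first 4 values stood only about 11, 26, 5 and 8 reads, against 134, 162 and 959 behind the last 3. Lefty2 had 1.91, 4.28, 2.54 and 1.04 in the early libraries and 12.3, 12.5 and 25.6 in the late ones, from about 85 to 2482 reads. In both genes every library from 14 h on lay above every earlier one, a pattern that 6.16% of the 6424 tested genes showed. The 14 h and 24 h libraries were nearly level in both, and the next step came at 48 h.

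Relative to 0 h, Lefty1 was 19.8-fold higher at 14 h, with a 95% counting interval from 10.8 to 40.8. At 48 h it was 79.8-fold higher (44.7 to 161). Lefty2 was 6.45-fold higher at 14 h (5.43 to 7.66) and 13.4-fold higher at 48 h (11.5 to 15.7). On log2 of the value plus 1, 2 of the 5 genes tested on values were higher by at least 1 at 14 h than at 0 h (both Lefty genes), against 2.23% of all genes, and 3 at 48 h (with Foxh1), against 7.91%. The fold intervals are exact (Clopper-Pearson on the split of reads), cover counting error only, and take reads as independent molecules. Both genes also stood higher at 2 h than at 0 h, Lefty1 by 4.62-fold (2.20 to 10.3) and Lefty2 by 2.24-fold (1.81 to 2.76). That difference was gone at 6 h, where Lefty2 was 1.84-fold lower than at 0 h. With 1 library at each of these times, the rise at 2 h has no replicate check.

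Set as 14, 24 and 48 h against 0, 2, 4 and 6 h, the difference passed the test across all genes for both antagonists. On log2 of the value plus 1, limma gave a difference of 2.61 ± 0.39 (SE) for Lefty1 (adjusted p = 0.018) and 2.38 ± 0.33 for Lefty2 (adjusted p = 0.013). These were 2 of the 5 genes tested, against 0.342% of all genes called as higher and 0.405% as lower. With the GC trend removed from each library both were called (2.35 and 2.34, adjusted p = 0.0087 for each by limma). Without the 48 h library the calls stood too, at 2.03 (adjusted p = 0.0018) for Lefty1 and 2.05 (adjusted p = 0.014) for Lefty2 by limma. Without the 4 h library neither was called on values (adjusted p = 0.076 and 0.064 by limma), while on reads both were (adjusted p = 0.030 and 0.025 by limma-voom). On reads the differences were 4.95 ± 0.68 (SE) and 3.06 ± 0.43 (limma-voom adjusted p = 0.0061 for each), against 1.24% of genes higher and 0.614% lower. Both were called there with any 1 of the 7 libraries left out.

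**Figure D1:**
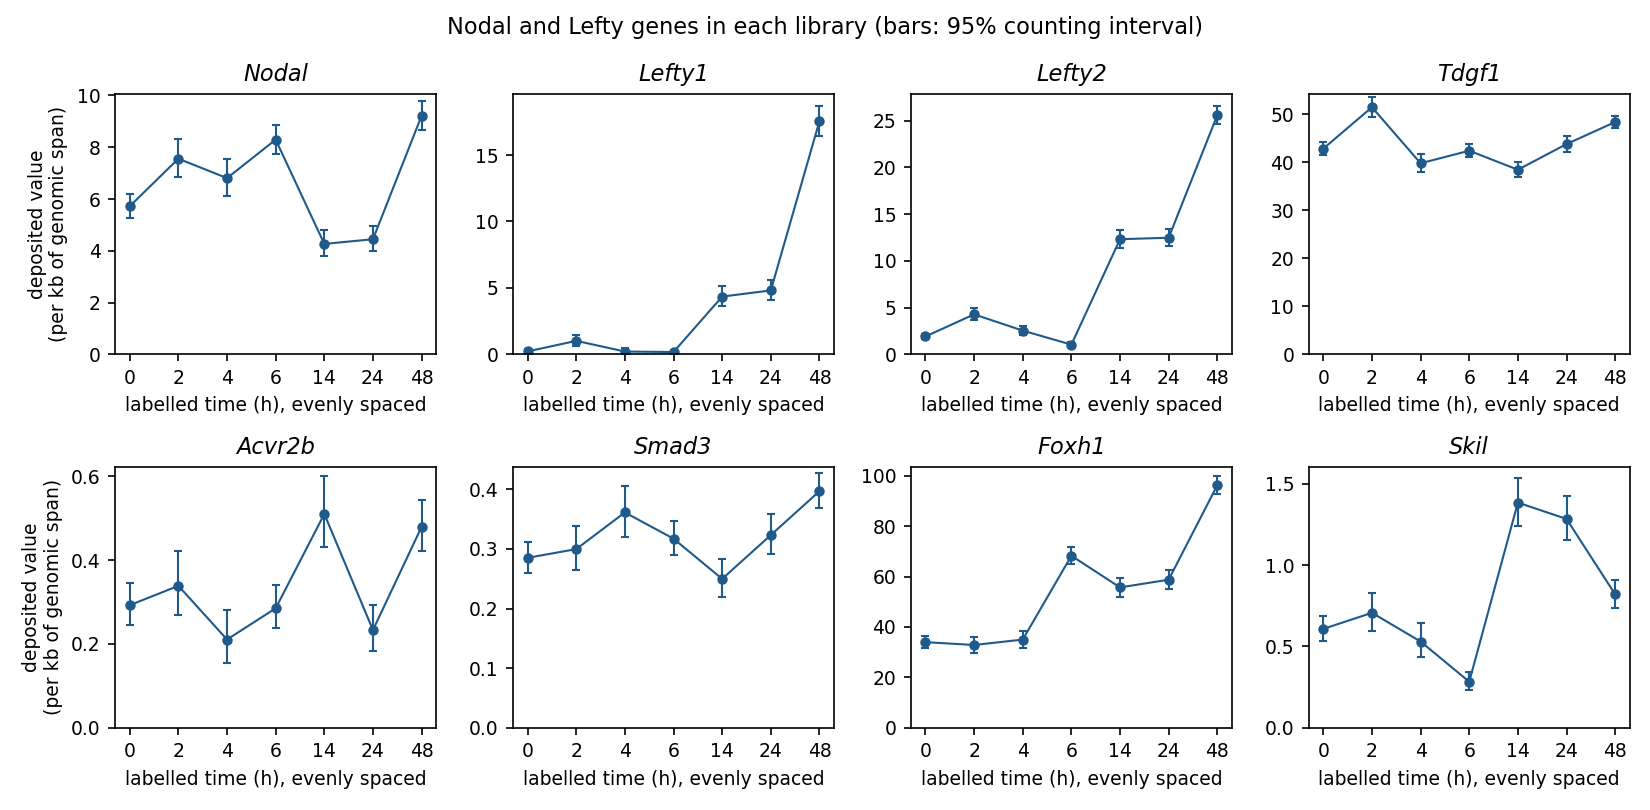
Deposited value (per kilobase of genomic span, y axis from 0) of each of the 8 genes in the 7 libraries, by labelled time in h with times evenly spaced. Bars are exact 95% Poisson intervals from the recovered reads. Lefty1 and Lefty2 lie at or under 1.02 and 4.28 through 6 h and at or above 4.35 and 12.3 from 14 h on, while Tdgf1 stays between 38.4 and 51.4.

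The straight-line trend over log2 of hours plus 1, which was the main test, did not call either gene on values. Between 0 and 48 h the line gave a log2 change of 3.87 ± 0.75 (SE) for Lefty1 (limma adjusted p = 0.056) and 3.29 ± 0.77 for Lefty2 (adjusted p = 0.078). Of the 8 genes, 5 reached the mean value of 1 that this test required and 0 of those 5 were called, against 0.296% of all genes called as rising and 0.0623% as falling. Their unadjusted p was under 0.05 for 3 of them, Lefty1, Lefty2 and Foxh1, as for 21.6% of all genes (1385 of 6424). On recovered reads, where all 8 genes could be tested, Lefty1 (7.80 ± 1.27 SE, limma-voom adjusted p = 0.011) and Lefty2 (4.41 ± 0.99, adjusted p = 0.038) rose, against 2.2% of genes rising and 0.807% falling. Lefty2 lost that call without the 4 h library (4.30, limma-voom adjusted p = 0.074). With the GC trend removed on reads Lefty1 was called (7.06, adjusted p = 0.028) and Lefty2 was not (4.30, adjusted p = 0.062 by limma-voom), against 1.74% rising and 0.614% falling. With hours as labelled in place of their logarithm, limma called both on values (4.03 and 3.32, adjusted p = 0.0016 and 0.020), against 2.52% of genes rising and 0.436% falling. Without the 48 h library the line called neither gene, on values (adjusted p = 0.411 and 0.562 by limma) or on reads (adjusted p = 0.295 and 0.445 by limma-voom).

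Nodal, the ligand, showed no late step like that of its antagonists. Its early libraries read 5.72, 7.56, 6.81 and 8.29 in order of time, and its late ones 4.27, 4.45 and 9.21. Its lowest libraries were thus those in which the Lefty genes had already stepped up, and its highest deposited value was that of 48 h. The fitted log2 change was 0.01 ± 0.40 (SE, limma adjusted p = 0.990), so the line alone allows a change of about 0.79 downward at 2 SE, or 1.42 without the 48 h library (-0.56 ± 0.43). It allows a rise of similar size as well, and without the 24 h library the fitted change was 0.27 ± 0.39. The late libraries lay 0.28 ± 0.24 under the early ones (limma adjusted p = 0.638), or 0.45 ± 0.17 with the GC trend removed (adjusted p = 0.201). Without the 48 h library that difference was -0.59 ± 0.19 (limma adjusted p = 0.259). In counting terms Nodal was 1.34-fold lower at 14 h than at 0 h and 1.61-fold higher at 48 h (1.46 to 1.78). On the log2 scale this 48 h difference was 0.60, but 0.03 after GC removal, which left 2 h as the highest library (0.17).

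The balance of antagonist to ligand transcripts can be read on one scale by dividing reads by the length of the spliced transcript rather than the span. It is a balance of mRNA, and protein was not measured. On it, summed Lefty1 and Lefty2 stood at 0.253, 0.470, 0.276 and 0.0987 of Nodal in the libraries from 0 to 6 h. From 14 h on the sum exceeded Nodal, at 2.60, 2.58 and 3.04 times its level. No interval was computed for these ratios, and reads from stretches identical in both Lefty genes could raise the sum. Nodal itself was lowest at 14 h and highest at 48 h on this scale (32.4), a range of 2.16-fold.

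**Figure D2:**
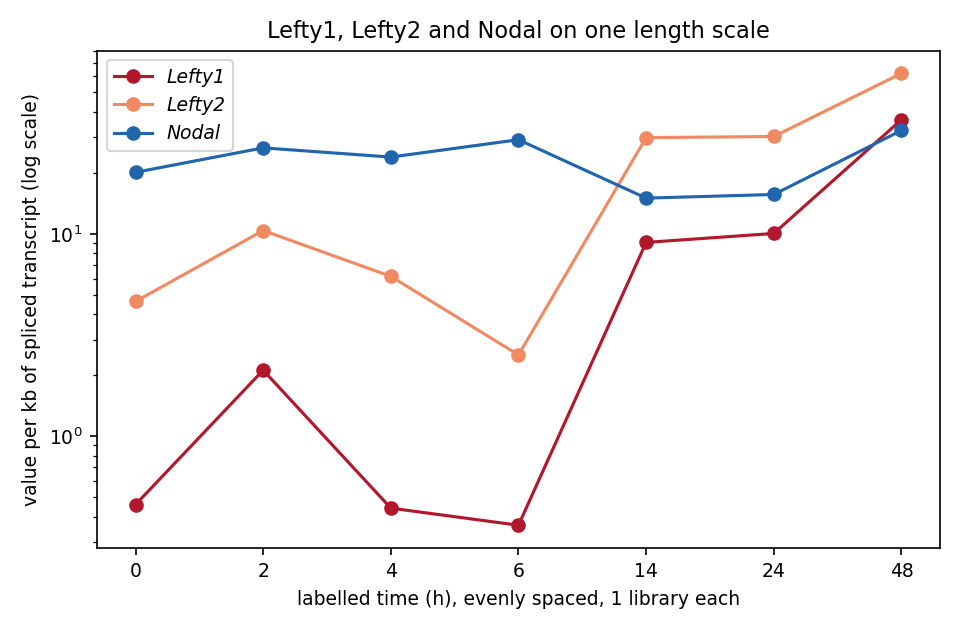
Lefty1, Lefty2 and Nodal per kilobase of spliced transcript (y axis, log scale) by labelled time in h, with times evenly spaced and 1 library each. Lefty2 lies above Nodal from 14 h on (30.2 against 15.6 at 24 h), and Lefty1 does so only at 48 h (36.6 against 32.4).

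Within the pair, Lefty2 was the more abundant gene in all 7 libraries on the transcript scale, and its excess was smallest at 48 h. The ratio of Lefty2 to Lefty1 was 10.1 at 0 h (95% counting interval 5.55 to 20.8), 4.90 at 2 h (3.27 to 7.75), 14.0 at 4 h (5.82 to 44.1) and 6.94 at 6 h (3.38 to 16.6). It was 3.30 at 14 h (2.73 to 4.00), 3.01 at 24 h (2.55 to 3.60) and 1.70 at 48 h (1.57 to 1.83). The 48 h interval lies under all others, those of 14 h and 24 h overlap each other, and the early ones are wide because Lefty1 had few reads. Reads from identical stretches could add to either side of this ratio. Lefty1 is also richer in GC (58.6%) than Lefty2 (51.5%), and the 48 h library was highest for GC-rich genes. On log2 of the value plus 1, ratios to 0 h of Lefty1 and Lefty2 were 2.25 and 2.21 at 24 h and 3.93 and 3.19 at 48 h. With the GC trend removed they were 2.07 and 2.09 at 24 h and 3.16 and 3.03 at 48 h. Adding 1 lowers these ratios more for Lefty1, whose 0 h value was 0.220 against 1.91 for Lefty2. With 0.1 added instead, and no GC removal, they were 3.94 and 2.65 at 24 h and 5.79 and 3.68 at 48 h. The nearness of the 2 genes at 24 h thus rests on the 1 added, and GC removal was run with 1 added only. The intervals do not cover GC differences, whose part in the 48 h ratio was not tested.

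Tdgf1, which encodes the co-receptor Cripto, varied least of the 8 genes across the libraries on the deposited values. It was 42.8, 51.4, 39.8, 42.4, 38.4, 43.8 and 48.3 in order of time, a coefficient of variation of 10.5% over the 7 libraries. Its fitted log2 change was 0.02 ± 0.26 (SE, limma adjusted p = 0.971), and the late and early libraries overlapped. With the GC trend removed the fitted change was 0.31 ± 0.28 (limma adjusted p = 0.578). The log2 ratio of 48 h to 0 h was then 0.59 in place of 0.17. Mouse annotation lists pseudogenes of Tdgf1 (Tdgf1-ps1 and Tdgf1-ps2), whose reads may be counted with it.

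The receptor and the transducer were measured at low values, and neither reached the mean value of 1. Acvr2b, a type II activin receptor, was 0.293, 0.339, 0.211 and 0.285 in the early libraries and 0.510, 0.233 and 0.479 in the late ones, from about 47 to 243 reads. Its late and early libraries overlapped, and its fitted change on reads was 0.57 ± 0.51 (SE, limma-voom adjusted p = 0.513) and turned to -0.36 with the GC trend removed. Smad3, the receptor-activated Smad, was 0.285, 0.300, 0.361, 0.317, 0.250, 0.323 and 0.397 in order of time, from about 254 to 714 reads. Its highest library was thus 1.59 times its lowest, and its fitted change on reads was 0.29 ± 0.33 (adjusted p = 0.605 by limma-voom). That change was 0.02 with the GC trend removed, and 0.02 without the 48 h library.

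Foxh1, the forkhead factor that brings Smad complexes to Nodal targets, was near level through 4 h and above those values in every library from 6 h on. The values were 34.0, 32.9, 35.0 and 68.3 from 0 to 6 h and 55.7, 58.8 and 96.2 from 14 to 48 h. At 6 h, where both Lefty genes were at their lowest, it was 2.01-fold over 0 h (counting interval 1.85 to 2.18), a log2 ratio of 0.99 that was 0.44 with the GC trend removed. The fitted log2 change was 1.46 ± 0.36 (SE, limma adjusted p = 0.085), or 1.48 ± 0.37 on reads (limma-voom adjusted p = 0.052), and neither passed. On reads it did pass without the 6 h library (1.53, limma-voom adjusted p = 0.044) or without the 24 h library (1.61, adjusted p = 0.041). The Foxh1 transcript is rich in GC (59.1%), and the 6 h and 48 h libraries were those with the highest median for GC-rich genes. With the GC trend removed the fitted change was 0.85 (limma adjusted p = 0.167) and its log2 difference between 48 h and 0 h was 0.67 in place of 1.47. The gene overlaps Kifc2, which was 0.977 to 2.52 over the libraries and also highest at 48 h, from about 53 to 312 reads against 426 to 2683 for Foxh1, so some reads may be shared. The read numbers of Foxh1 are approximate, since annotations differ in its span.

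Skil, the Smad-binding repressor, was highest at 14 h and 24 h on the deposited values. The early libraries gave 0.608, 0.707, 0.530 and 0.283, and the late ones 1.38, 1.28 and 0.820, from about 103 to 365 reads. Every late library lay above every early one, as in 8.01% of the 13515 genes tested on reads. The difference of late and early libraries on reads was 1.18 ± 0.34 (SE, limma-voom adjusted p = 0.107), and missed the threshold. With the GC trend removed, a setting chosen after seeing the data for this gene, it was 1.48 ± 0.24 and was called (limma-voom adjusted p = 0.0098), against 2.28% of genes higher and 1.95% lower. Skil is poor in GC (41.0%), and the 6 h and 48 h libraries were lowest for GC-poor genes. After GC removal its log2 ratio to 0 h was highest at 48 h (0.97), beside 0.93 at 14 h and 0.53 at 24 h, so the order of the late libraries turns. The straight line did not call it (1.01 ± 0.68 SE, limma-voom adjusted p = 0.375), and the change was 1.71 after GC removal (adjusted p = 0.149) and 0.71 to 1.60 with a library left out. The other Skil rows had the same shape, with 1.45 and 1.23 at 14 h.

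**Figure D3:**
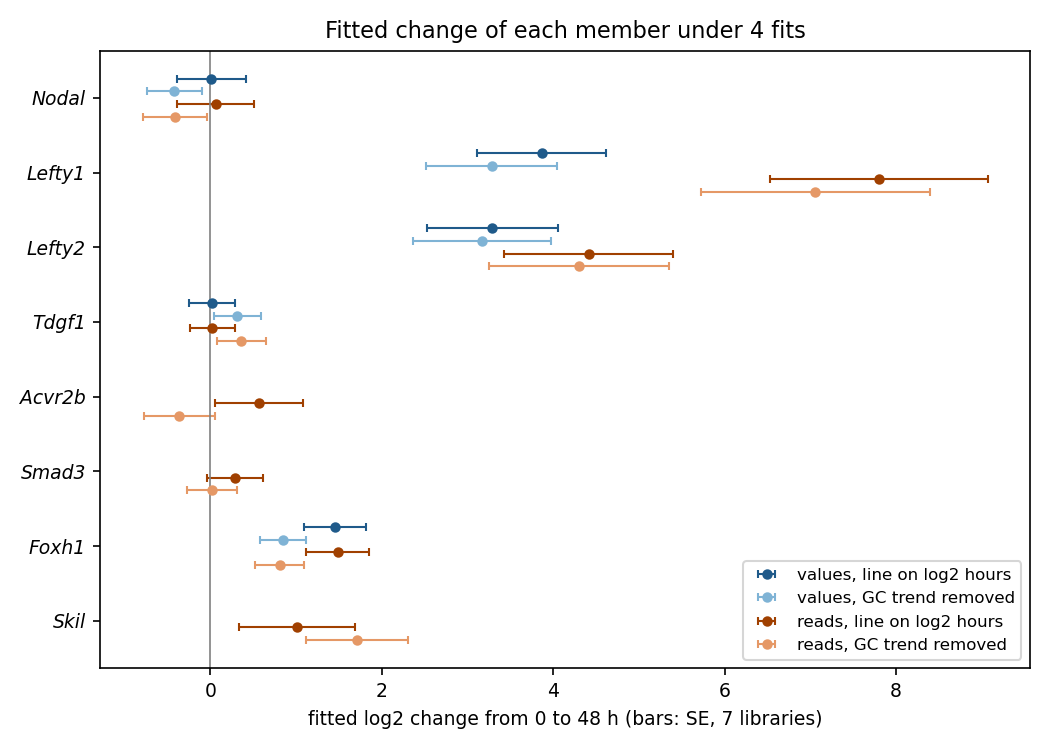
Fitted log2 change from 0 to 48 h of each gene (x axis) with its SE over 7 libraries, by limma on values, limma on values with the GC trend removed, limma-voom on reads, and limma-voom on reads with the GC trend removed. Acvr2b, Smad3 and Skil have fits on reads only, Lefty1 and Lefty2 lie between 3.17 and 7.80 in all 4 fits, and Foxh1 falls from 1.46 to 0.85 on values when the GC trend is removed.

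On the transcript scale the mean levels over the 7 libraries ran from Tdgf1 (149) through Foxh1 (68.7), Nodal (23.3), Lefty2 (20.8), Lefty1 (8.44), Smad3 (6.97) and Acvr2b (5.04) to Skil (3.35). Tdgf1 was never under 130 and Foxh1 never above 122, and Foxh1 was never under 41.5 while Nodal was never above 32.4, so these neighbours did not overlap. This order depends on the span of Foxh1, taken as 1724 bases from the GENCODE transcript. With the 3786 bases of the RefSeq gene, an alternative added after seeing the data, its mean is 151 (91.1 to 267). Tdgf1 then has 149 (130 to 174), so the means are level and the ranges overlap. The lowest Foxh1 library lies under every Tdgf1 library, and the highest lies above them all. Nodal and Lefty2 did overlap, as did every later pair of neighbours in this order. The scale takes all reads as falling in exons, which the files cannot show.

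Of 44 other genes of the Nodal, activin and TGF-beta pathway, few passed any test. On values 16 were tested and 0 were called by limma (0.296% of all genes rose and 0.0623% fell), with a median fitted change of -0.01 beside 0.01 over all genes. On reads 37 were tested, 3 rose and 0 fell, against 2.2% and 0.807% of all genes, with a median of -0.00 beside -0.06 over all genes. The 3 were the ligand Tgfb1 (0.276 at 0 h and 2.07 at 48 h, limma-voom adjusted p = 0.047), Tgif2, a corepressor of Smads (2.13 and 6.48, adjusted p = 0.044), and Foxa2, a definitive endoderm and floor plate factor that Nodal induces in the embryo (0.115 and 4.62, adjusted p = 0.006). Foxa2 was between 0.115 and 0.208 through 6 h and then 0.617, 1.42 and 4.62, with only about 7 reads behind its 0 h value and 306 behind that of 48 h. It was the one of these 37 called in the comparison of late with early libraries on reads (difference 3.73, limma-voom adjusted p = 0.022), where 1.24% of all genes were higher and 0.614% lower.

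With the GC trend removed on reads Foxa2 kept its call (5.83, limma-voom adjusted p = 0.014), while Tgfb1 (1.29, adjusted p = 0.210) and Tgif2 (1.04, adjusted p = 0.086) lost theirs. In that fit, in which 1.74% of all genes rose and 0.614% fell, Pcsk6, a convertase that processes Nodal, fell (-1.36, adjusted p = 0.036), as did Gsc, a homeobox gene induced by Nodal in the embryo (-2.95, adjusted p = 0.0498, with about 29 reads behind the 0 h value and 13 behind the 48 h one). Gsc was 0.928, 1.36, 0.841 and 0.757 in the early libraries and 0.271, 0.297 and 0.367 in the late ones, so it lay lower where the Lefty genes lay higher. The share of all genes with that downward pattern was not computed. On reads without GC removal limma-voom did not call Gsc, by the line (-1.91, adjusted p = 0.132) or late against early (-1.54, adjusted p = 0.099). Other targets that Nodal induces in the embryo stayed low: Mixl1 lay between 0.405 and 0.843, and T (brachyury) and Sox17 were at or under 0.0997 and 0.311. Gdf3, another ligand of the family, had a first value of 27.5, a lowest of 12.9 (4 h) and a last of 47.4 (fitted change 1.05 ± 0.52 SE, limma adjusted p = 0.263). The nuclear regulators Drap1, which inhibits Foxh1 (19.0 to 27.7), and Tgif1 (8.20 to 14.3) did not pass (limma adjusted p = 0.747 and 0.730).

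**Figure D4:**
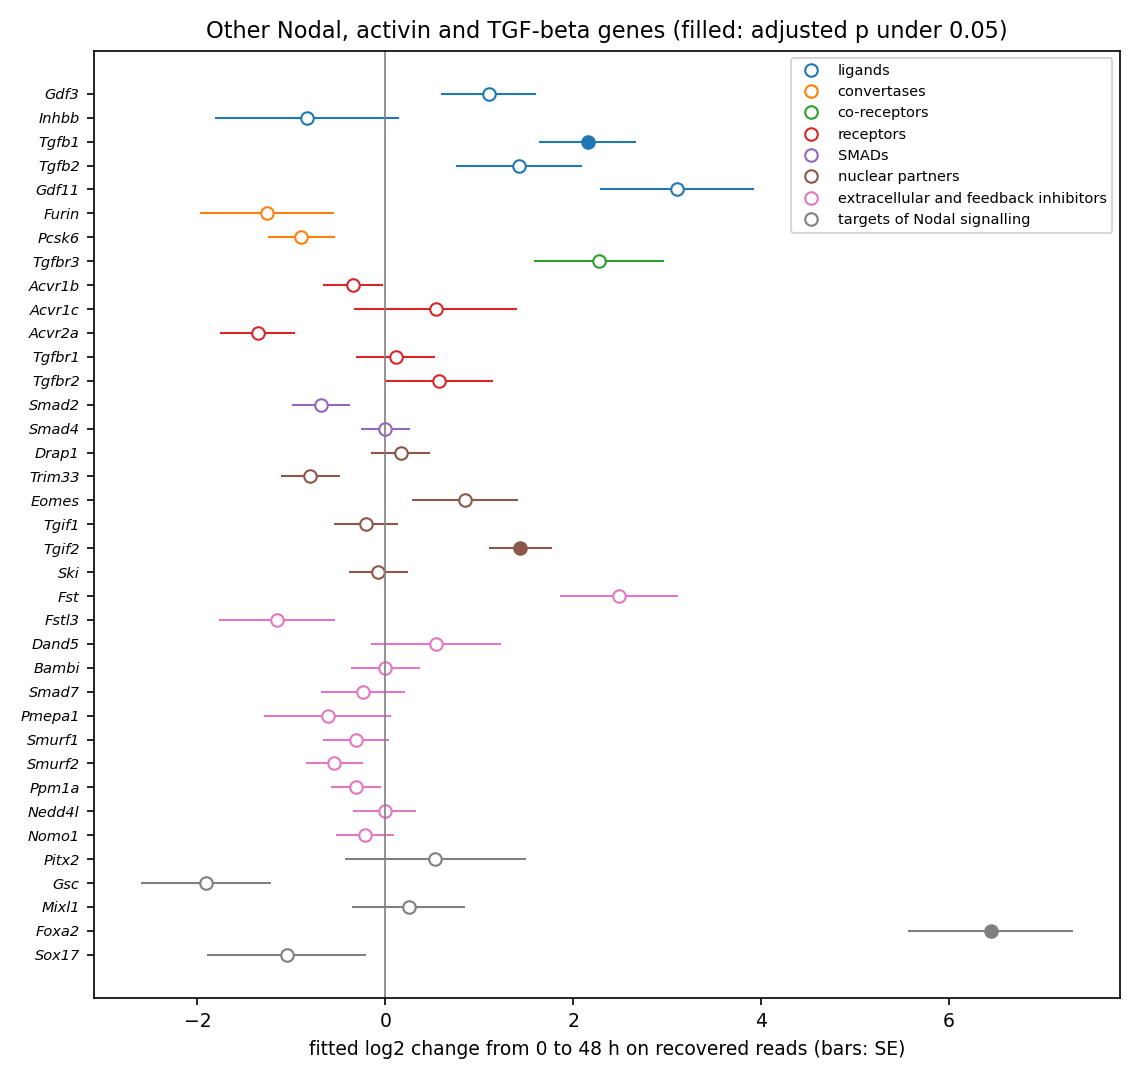
Fitted log2 change from 0 to 48 h on recovered reads (x axis) with its SE for the 37 other pathway genes that could be tested, coloured by role. Filled points passed limma-voom at an adjusted p under 0.05: Tgfb1, Tgif2 and Foxa2, which lies farthest to the right at 6.44.

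Among genes with a mean value of at least 5, Lefty2 followed Lefty1 most closely over the 7 libraries (Pearson correlation of log2 values 0.975), which shared reads could raise. It was followed by Twf2, an actin-binding twinfilin (0.973), and the SoxC factor Sox12 (0.972), out of 2364 genes. For Nodal the closest of 2363 genes were Ulk1, an autophagy kinase (0.969), Ckb, the brain creatine kinase (0.95), and Eif4ebp1, an inhibitor of cap-dependent translation (0.942). For Tdgf1 they were Klf2 (0.873), Slc38a2 (0.857) and Wdr5 (0.830). These values describe 7 libraries that share depth and GC differences, and with so many genes compared the highest of them are high by selection.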

How the data were processed

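One table that the authors deposited gave 1 value per RefSeq transcript in each of 7 libraries, and its header names no unit. The genome build mm9 and the aligner Bowtie2, with no version, are named in the submitters' processing notes. The sources used here name no counting tool, strand setting or treatment of multi-mapped reads. Multiplied by genomic span and a library factor, 79.5% to 81.2% of low values (2 to 20 reads) came within 0.1 of a whole number of reads (20% by chance), so reads could be recovered approximately. Spans, transcript lengths and GC content came from GENCODE M21 and RefSeq (GRCm38, not mm9), so no coordinates are given. Symbols were matched by accession for 27038 of 27353 transcript rows.

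Values were log2-transformed after adding 1, and trends were fitted with limma 3.58.1 (R 4.3.3) over 6424 genes with a mean of at least 1 and 5 residual degrees of freedom. Calls used a Benjamini-Hochberg adjusted p under 0.05 over all genes. Other settings included late (14, 24 and 48 h) against early libraries, limma-voom on the 13515 genes with 10 or more recovered reads in 3 or more libraries, and a natural spline on GC content (5 degrees of freedom) removed from each library. In every fit on reads, late against early included, limma-voom took its weights from the scatter around the straight line over log2 of hours plus 1. The left-out libraries, reads and GC removal for the late against early difference, and left-out libraries on reads, were added after seeing the data. GC content was known for 99.6% of tested genes. The trend fits were also run on simulated counts whose changes followed the fitted line, with no GC differences between libraries. That run does not cover GC differences or changes in steps. P-values rest on the scatter of single libraries around the fitted line or group means. That scatter may be technical, and it also holds any change over time that the fitted shape misses.

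Named were the 8 genes and the 3 genes closest to Nodal, Lefty1 and Tdgf1. Pathway genes were named where they were called or had a mean of 5 or more (4 per role at most). Mixl1, T, Sox17, Kifc2, single cell type markers and the genes under other observations fall outside this rule. Those were chosen after seeing their values. The members and lists were chosen with earlier results of these data known. A sequence stretch shared by the Lefty genes is not reported here.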

Additional observations from a re-analysis of the deposited data

How the results depend on the processing

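Of 5 members tested on values, 0 were called in the main test and 2 with hours as labelled or with late against early libraries. On reads 2 of 8 were called, and 1 of 8 with the GC trend removed. Leaving out single libraries on values gave 0 to 2 of 5 (1 without 0 h and 2 without 6 h). Over all genes, 23 of 6424 were called in the main test, 1 with quantile normalization and 43 with pseudocount 0.1. Hours as labelled gave 190 of 6424, late against early 48, and leaving a library out 1 to 76. The count was 0 with no filter (of 17912), with pseudocount 5 or with the GC trend removed by limma (of 6424 each). In these 3 settings 3091, 1370 and 1174 genes had an unadjusted p under 0.05 by limma. On reads 407 of 13515 were called, and 318 with the GC trend removed. Of 16 pathway genes tested on values, 0 were called in the main test, 1 with pseudocount 0.1 and 3 with hours as labelled. With a library left out it was 0 to 1 of 16. On reads 3 of 37 rose, and with the GC trend removed 1 of 37 rose and 2 fell.

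Lefty1 was called with hours as labelled (4.03), late against early (2.61), on reads (7.80) and on reads with the GC trend removed (7.06), and ranged from 2.82 to 5.18 with a library left out (limma adjusted p from 0.029 without 0 h to 0.411 without 48 h, and 0.040 without 6 h). Lefty2 was called with hours as labelled (3.32), late against early (2.38) and on reads (4.41), and ranged from 2.69 to 4.26 (limma adjusted p from 0.029 without 6 h to 0.562 without 48 h). The late against early difference ranged from 2.03 to 2.92 for Lefty1 and from 2.05 to 2.61 for Lefty2, and the call was lost in both without 4 h only. That of Skil on reads ranged from 0.85 to 1.46 with a library left out, and was 1.48 with the GC trend removed.

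Nodal turned negative with quantile normalization (-0.060), late against early (-0.28), and with the GC trend removed on values (-0.42) or reads (-0.42), and ranged from -0.56 to 0.27 with a library left out. Tdgf1 turned negative with quantile normalization (-0.17) and late against early (-0.019), and ranged from -0.15 to 0.13. With the GC trend removed it was 0.31 on values and 0.36 on reads. Acvr2b on reads was -0.36 with the GC trend removed. None of these was called. The fit with a minimum mean of 5 tested no Lefty1 value and moved the median change of all genes to 0.14. Foxh1 kept its direction in the settings run and was called only on reads without the 6 h or the 24 h library. Under another pseudocount, GC removal or reference, the log2 ratios of members to 0 h moved beyond their counting interval in 81 comparisons and stayed within it in 55. The cause of these differences was not tested. No paired analysis was possible because each time has 1 library. Depth limits Lefty1 most, with 5 to 26 reads in each library through 6 h.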

Other observations

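Pmepa1 and Smad7, feedback genes of the pathway, were at their lowest at 14 h and 24 h, where Lefty1, Lefty2 and Skil were above all their earlier values. They were picked after seeing their values from the 12 extracellular and feedback inhibitors listed, which had no common course. Bambi was also lowest at 14 h and 24 h (1.52 and 1.58), while Dand5 (0.370) and Nomo1 (2.90) were highest at 14 h. The share of all genes lowest at 14 h and 24 h was not computed. Pmepa1, an inhibitor induced by TGF-beta signalling, was 0.249, 0.388, 0.461 and 0.443 in the early libraries and 0.143, 0.116 and 0.318 in the late ones. Smad7, the inhibitory Smad, was 1.24, 1.85, 1.68 and 1.44, then 1.01, 0.805 and 1.69. Neither passed in the comparison of late with early libraries on reads (-1.0 and -0.41, limma-voom adjusted p = 0.207 and 0.466). Nodal had its lowest values at 14 h and 24 h as well (4.27 and 4.45). Fst, the activin-binding antagonist follistatin, went from 0.623 to 4.41 between the first and last library without passing on reads (2.49 ± 0.63 SE, limma-voom adjusted p = 0.056).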
